A study of Mus musculus with 4 samples.

Results

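The genes described here encode the nuclear subunits of the mitochondrial oxidative phosphorylation system. They were taken as every gene whose symbol begins with Nduf, Uqcr, Atp5, Cox4, Cox5, Cox6, Cox7 or Cox8, together with Sdha, Sdhb, Sdhc, Sdhd, Cyc1 and Cycs, with pseudogenes left out. A total of 94 such genes, read by 119 probes, were found among the 23462 genes named on the array. They comprised 36 subunits of complex I, 4 of complex II, 9 of complex III, 18 of complex IV and 17 of complex V. The remaining members were cytochrome c (Cycs), 8 assembly factors of complex I (Ndufaf1 to Ndufaf8) and the supercomplex factor Cox7a2l. Of the subunits, 8 are isoforms whose main expression lies in tissues other than liver, or under special conditions (Cox4i2, Cox6a2, Cox6b2, Cox7a1, Cox7b2, Cox8b, Cox8c and Ndufa4l2). The other 76 are called core subunits below, and they include the ubiquitous forms of every complex.

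Whole liver RNA of male mice was measured on 4 Agilent 1-colour arrays, with 1 array in each of 4 groups. The control array holds RNA of naturally aged mice given no drug, and the diabetic array RNA of aged mice made into a type 2 diabetes model. The metformin array holds RNA of the aged diabetes model treated with metformin, and the combination array RNA of the same model treated with astragalus polysaccharide, a plant polysaccharide preparation, and metformin together. The sources used here do not give strain, age, dose, the way diabetes was induced or whether several animals were pooled, and the sample titles carry 60 d without saying what it counts from. No array of astragalus polysaccharide alone was analysed here, so the combination is set beside metformin. With 1 array in a group no difference could be tested, and every value below compares arrays and not conditions. The diabetic array enters 3 of the 4 comparisons made and the metformin and combination arrays 2 each, so the comparisons are not independent of each other.

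Oxidative phosphorylation passes electrons from NADH through complex I, or from succinate through complex II, to ubiquinone, then through complex III and cytochrome c to complex IV, where oxygen is reduced. The proton gradient that complexes I, III and IV build is used by complex V, the ATP synthase, to make ATP. Liver is rich in mitochondria and draws on this ATP for gluconeogenesis and urea synthesis, and complex I is the mitochondrial target most often named for metformin. A few core proteins of complexes I, III, IV and V are encoded by mitochondrial DNA. Those genes were not analysed here, and the nuclear genes Cox5b and Ndufb1 were not among the named probes.

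A level is the log2 processed signal of a probe minus the 75th percentile of the 24363 probes that were above background and not marked as outliers on all 4 arrays. A difference is the mean over a gene's probes measured on both arrays, and a gene was counted as higher or lower where it differed by at least 1.5-fold. Repeated spots of 1 probe gave a technical SD of 0.11 in log2 for a difference in each of the 4 comparisons, which covers spot error within an array and no difference between animals. Spots marked as outliers by the scanner software were left out. Values given 4 in a row for the arrays stand in group order, which is control, diabetic, metformin, combination, and those for the comparisons stand in the order diabetic minus control, metformin minus diabetic, combination minus diabetic, combination minus metformin. Outlier marks removed 3.12%, 7.81%, 6.25% and 3.12% of the 128 member spots in group order. As a result Ndufs1, Sdhd, Ndufa4, Atp5g3 and Atp5md had no diabetic value, Ndufb2 no metformin value and Atp5j no combination value, while Sdhc was measured on the combination array alone and Ndufaf3 had no difference in any comparison. Differences could be given for 84 members in diabetic against control, 85 in metformin against diabetic, 85 in combination against diabetic and 89 in combination against metformin.

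Promoter sequences are shown first, because nuclear OXPHOS genes are known to be controlled together by the transcription factors NRF1 and GABP (an ETS factor, also called NRF2) and by the oestrogen-related receptor ERRalpha (Esrra). Promoter sequences from 250 bases before to 50 after the gene start were taken from RefSeq (GRCm38.p6) for 76 of the 94 members. The palindromic core of the NRF1 site, CGCATGCG, searched on both strands, lay in 12 of these 76 promoters (15.8%), against 559 of 27025 genes (2.07%). The ETS core CCGGAAGT was found in 5 members (6.58%) against 4.31% of all genes, and the ERRalpha element TCAAGGTCA in 2 members (2.63%) against 0.466%, each on either strand. The 6 windows of 60 bases below hold the NRF1 core in capitals and come from an electron carrier, complex V, complex IV, complex I and an assembly factor. They lie at chr6:50566597-50566656 (minus strand) for Cycs, chr15:102671055-102671114 (minus strand) for Atp5g2, chr5:108434415-108434474 (minus strand) for Atp5k, chr5:115349086-115349145 (minus strand) for Cox6a1, chr17:56717677-56717736 (plus strand) for Ndufa11 and chr4:24897945-24898004 (plus strand) for Ndufaf4.
Cycs: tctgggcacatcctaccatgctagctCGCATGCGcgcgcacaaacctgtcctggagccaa
Atp5g2: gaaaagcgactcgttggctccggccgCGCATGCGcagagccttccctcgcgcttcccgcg
Atp5k: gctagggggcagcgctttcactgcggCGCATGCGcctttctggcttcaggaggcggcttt
Cox6a1: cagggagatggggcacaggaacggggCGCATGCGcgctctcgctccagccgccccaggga
Ndufa11: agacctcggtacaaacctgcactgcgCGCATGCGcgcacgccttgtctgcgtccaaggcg
Ndufaf4: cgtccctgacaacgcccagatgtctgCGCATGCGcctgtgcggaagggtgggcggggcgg
The window of Uqcr11 (a complex III subunit) holds the ETS core in capitals, and that of Atp5g3 (a ring subunit of complex V) the ERRalpha element, which there runs on the opposite strand. They lie at chr10:80406854-80406913 (minus strand) for Uqcr11 and chr2:73911344-73911403 (minus strand) for Atp5g3.
Uqcr11: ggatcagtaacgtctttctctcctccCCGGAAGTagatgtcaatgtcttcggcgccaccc
Atp5g3: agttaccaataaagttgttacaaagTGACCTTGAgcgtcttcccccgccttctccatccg
A match of letters is not a bound site. Members with the NRF1 core had much the same differences as those without it. Their median was -0.19 against -0.17 in diabetic minus control (12 and 57 genes measured) and -0.12 against -0.14 in metformin minus diabetic (12 and 58 genes). It was 0.08 against 0.10 in combination minus diabetic (11 and 59 genes) and 0.21 against 0.24 in combination minus metformin (11 and 62 genes).

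The core subunits were among the brightest genes of these livers on all 4 arrays, and they differed little between arrays. The median signal of their probes was 34600, 34200, 34400 and 40200 in group order. Each of these medians lay at the 97.7th to 98.0th percentile of all probes. After scaling, the core subunits were lower on the diabetic than on the control array by a small and uniform amount, with a median of -0.20 in log2 over 70 genes, 64 of them below 0. They were lower again on the metformin than on the diabetic array, with a median of -0.14 over 69 genes, 67 of them below 0. On the combination array they were higher than on the diabetic array by a median of 0.11, with 60 of 69 above 0, and higher than on the metformin array by a median of 0.25, with 72 of 73 above 0.

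These shifts were close to those of other bright genes and depended on how the arrays were scaled. The median over 1918 named genes at a mean level of 1 or more was -0.20 in diabetic minus control, -0.10 in metformin minus diabetic, 0.08 in combination minus diabetic and 0.16 in combination minus metformin. Over all named genes measured the medians were -0.05, 0.03, 0.05 and -0.02. The band of mean level from 2 to 3 holds 732 genes and 54 core subunits. The medians of all genes there were -0.26, -0.11, 0.11 and 0.22 in the same order. Those of the subunits were -0.20, -0.14, 0.11 and 0.25. Of all genes in the band, 93.4%, 82.4%, 19.4% and 9.56% were below 0 in that order. Of the 54 core subunits, 52, 53, 6 and 0 were below 0. Most genes at this level thus shared the direction of the core subunits in each comparison. The counts by complex given below stand against these shares too. Before scaling, the core subunits differed by a median of -0.03 in diabetic minus control (27 of 70 above 0) and 0.01 in metformin minus diabetic (38 of 69 above 0). With quantile normalization the median of all members measured was 0.07 in diabetic minus control, -0.05 in metformin minus diabetic, -0.05 in combination minus diabetic and 0.01 in combination minus metformin. The direction of the shared shift thus turned with quantile normalization in diabetic minus control and in combination minus diabetic, and likewise with the authors' values, which gave a median of 0.08 with 66 of 84 above 0 and a median of -0.04 with 55 of 85 below 0. It turned in the latter also with each array's own 75th percentile (median -0.15), and with no scaling in metformin minus diabetic. In combination minus metformin the median was above 0 under each setting named here, by 0.23 in log2 for the core subunits before scaling. It was near 0, however, with quantile normalization and with the authors' values. Both gave a median of 0.01 over all members, with 49 above and 40 below 0.

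**Figure D1:**
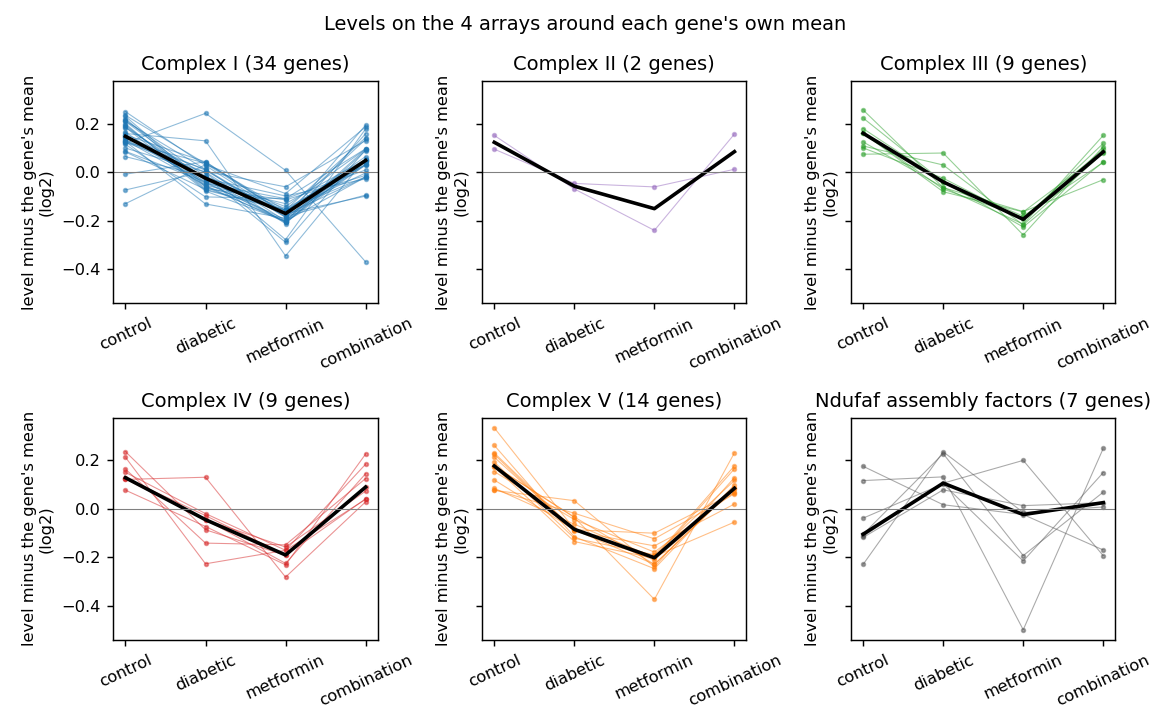
Levels of the core subunits of each complex and of the Ndufaf assembly factors on the 4 arrays, as log2 level minus the gene's own mean over the arrays. Thin lines are genes above background on all 4 arrays, and the thick black line is their median. The median lines of all 5 complexes run down to the metformin array and up again to the combination array. Most assembly factors instead rise from the control to the diabetic array.

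The order of the arrays was the same for most core subunits on the main scale. Of 68 core subunits above background on every array, 64 (94.1%) had their lowest level on the metformin array, and 49 (72.1%) had their highest on the control array. The metformin array was also the lowest for 57.8% of the 1918 bright genes and for 26.8% of all 12702 named genes measured on every array. With no scaling the metformin array was lowest for 25 and the diabetic for 30 of the 68. With quantile normalization it was lowest for 20 of them, and with the authors' own normalized values for 17.

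Differences of all genes were small at the bright end of the scale. Over all genes, the SD of the differences was 0.18, 0.15, 0.16 and 0.17 in the band of level from 2 to 3 in the 4 comparisons, against 0.86, 0.79, 0.73 and 0.76 in the band from -3 to -2. In the brighter band 0.137%, 0.41%, 0.546% and 1.09% of genes were at least 1.5-fold higher and 2.6%, 0.546%, 0.546% and 0.137% at least 1.5-fold lower. No spot on these arrays was marked as saturated. Whether the signal of such bright probes follows RNA amount in proportion was not tested.

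**Figure D2:**
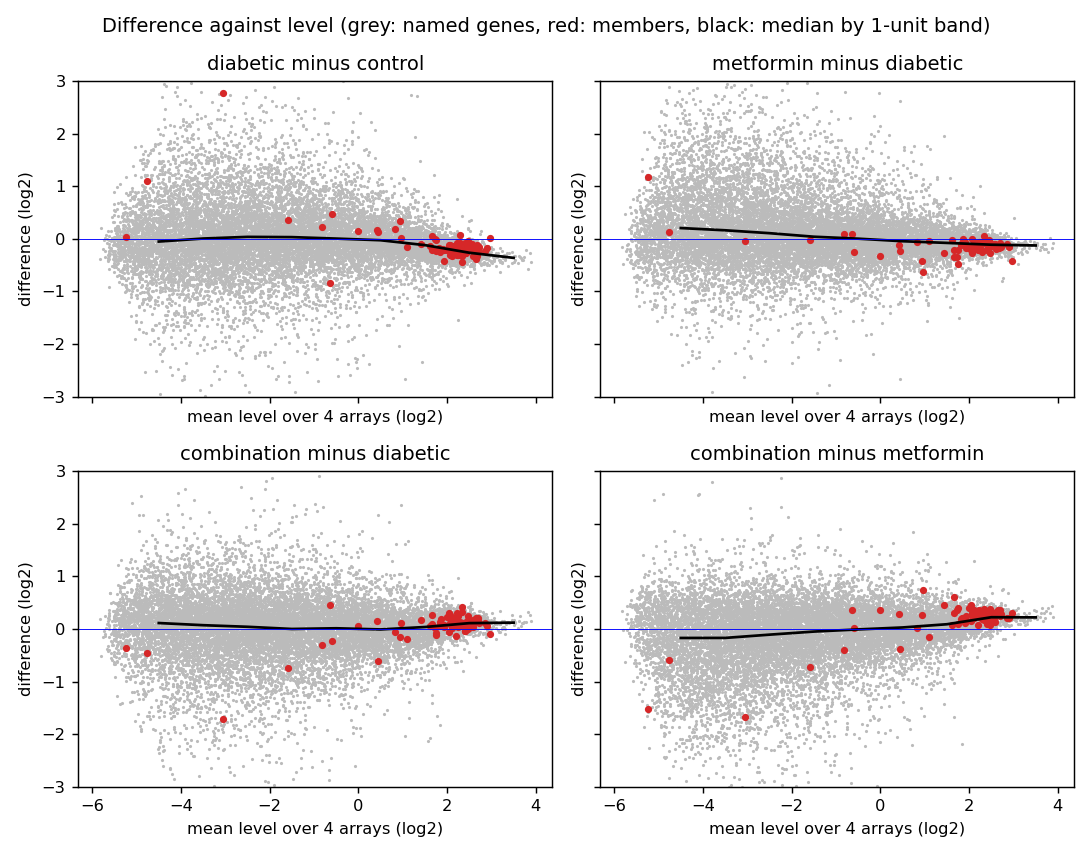
Difference in log2 (vertical, drawn from -3 to 3) against mean log2 level over the 4 arrays (horizontal) for the named genes measured on all arrays, 1 panel per comparison. Grey points are genes, red points the members and the black line the median of all genes by band of 1 unit, and the members at the bright end lie close to the black line, whose medians are -0.26, -0.11, 0.11 and 0.22 in the band from 2 to 3.

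Complex I takes electrons from NADH, and its catalytic core includes the flavin-bearing Ndufv1 and the proteins Ndufv2, Ndufs1, Ndufs3, Ndufs7 and Ndufs8. The median over its core subunits was -0.18 in diabetic minus control, with 31 of 35 below 0, and -0.15 in metformin minus diabetic, with 34 of 34 below 0. It was 0.09 in combination minus diabetic (27 of 35 above 0) and 0.23 in combination minus metformin (34 of 35 above 0). The count below 0 in metformin minus diabetic was 25 of 34 with quantile normalization, 24 of 34 with the authors' values and 17 of 34 with no scaling. No subunit of complex I reached 1.5-fold in diabetic against control or in metformin against diabetic.

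Ndufv1, which binds NADH, had levels of 1.52, 1.42, 1.14 and 1.60 in group order, and its probes gave -0.40 and -0.16 in metformin minus diabetic. It was lowest on the metformin array, and its probes differed from each other by more than the technical SD. Ndufs1, the largest subunit of the core, read 1.90 (control), 1.57 (metformin) and 1.83 (combination).

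Further catalytic subunits of complex I shared their highest and lowest array. Ndufv2 read 2.41, 2.12, 1.97 and 2.21 in group order. Ndufs3 read 2.39, 2.21, 2.09 and 2.32. Ndufs7 read 2.53, 2.45, 2.25 and 2.41, and Ndufs8 read 2.62, 2.44, 2.37 and 2.44. For each of the 4 genes the control array was highest and the metformin array lowest.

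Ndufab1 went another way. It encodes the mitochondrial acyl carrier protein, which serves fatty acid synthesis in the mitochondrion as well as complex I. Its levels were 0.55 (control), 0.68 (diabetic), 0.44 (metformin) and 0.06 (combination), so the combination array was the lowest. In combination minus diabetic it differed by -0.61, or 1.53-fold, the largest difference of any core subunit in that comparison. Without scaling the value was -0.49, short of 1.5-fold. Ndufc2, a membrane-arm subunit, had the highest value of complex I in that comparison, 0.33. Ndufa11, a membrane-arm subunit, read 0.29, 0.45, 0.33 and 0.61 in group order and was lowest on the control array.

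Ndufb8, a membrane-arm subunit, was read by probes that parted. The brighter probe gave 2.27, 2.13, 1.94 and 2.15, and the dimmer -2.53 (control), -2.98 (metformin) and -2.56 (combination) but was not well above background on the diabetic array. The gene's differences from the diabetic array rest on the brighter probe.

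Complex II, which joins the citric acid cycle to the respiratory chain, was measured through few genes. Sdha, the flavoprotein that oxidizes succinate, had levels of 1.72, 1.57, 1.56 and 1.63 in group order. Sdhb, the iron-sulfur subunit, read 2.16, 1.94, 1.77 and 2.17. Sdhd, a membrane anchor, read 2.85 (control), 2.45 (metformin) and 2.71 (combination). By these levels each was lowest on the metformin array among the arrays that measured it. For Sdha, however, the gap from diabetic to metformin, -0.01, lay within the technical SD, and its probes parted. The dimmer probe read 1.55, 1.27, 1.17 and 1.32 in group order. The brighter read 1.88, 1.88, 1.95 and 1.95 and was not lowest on the metformin array.

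Complex III carries electrons from ubiquinol to cytochrome c. Its 9 members had a median of -0.22 in diabetic minus control (8 below 0), -0.15 in metformin minus diabetic (9 below 0), 0.08 in combination minus diabetic (9 above 0) and 0.28 in combination minus metformin (9 above 0). Uqcrfs1, the Rieske iron-sulfur protein, read 1.80, 1.80, 1.47 and 1.83 in group order. Cyc1, cytochrome c1, read 2.40, 2.32, 2.08 and 2.37. For these catalytic genes the metformin array stood below the other 3, which lay within 0.08 of each other.

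The core proteins Uqcrc1 and Uqcrc2 form the matrix side of complex III. Uqcrc1 read 2.62, 2.40, 2.26 and 2.48 in group order, and Uqcrc2 read 2.83, 2.64, 2.49 and 2.86. Cycs, the soluble carrier to complex IV, read 2.02, 1.77, 1.69 and 1.91.

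The ubiquitous subunits of complex IV followed the same course with a median of -0.17 in diabetic minus control (8 of 9 below 0), -0.15 in metformin minus diabetic (8 of 9 below 0), 0.13 in combination minus diabetic (8 of 9 above 0) and 0.30 in combination minus metformin. Cox4i1, the regulatory subunit that binds ATP, read 3.10 (control), 3.11 (diabetic), 2.70 (metformin) and 3.01 (combination). Only the metformin array stood apart for this gene, by -0.41 from the diabetic array. Cox6c, a small membrane subunit, read 2.54, 2.10, 2.16 and 2.51, so the diabetic and metformin arrays were both low. Cox5a, a subunit on the matrix side, read 2.77, 2.60, 2.42 and 2.79. Cox7b, a further membrane subunit, differed by -0.32 in diabetic minus control.

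In complex V all 15 members measured were below 0 in diabetic minus control (median -0.21), 14 of 15 in metformin minus diabetic (median -0.11), and all 14 measured were above 0 in combination minus diabetic (median 0.16). In combination minus metformin the median was 0.30. Atp5a1, the alpha subunit of the catalytic head, read 2.44, 2.13, 2.06 and 2.37 in group order. Atp5c1, the rotating gamma subunit, read 2.68, 2.48, 2.35 and 2.60. For both, the diabetic and metformin arrays lay below the control and combination arrays.

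Atp5b, the catalytic beta subunit, read 1.83, 1.62, 1.28 and 1.89. It was the only core subunit at least 1.5-fold higher in combination minus metformin, by 0.60 or 1.52-fold, but its probes gave 0.32 and 0.89. Its value ran from 0.32 with the brightest probe alone to 0.70 with median scaling and fell short of 1.5-fold in 7 of the alternative settings. Atp5g3 had the next largest value of the complex, 0.57. Atp5k, a small membrane subunit, and Atp5pb, the b subunit of the stalk, were among the lowest members in diabetic minus control, at -0.42 and -0.38. Atp5g1, another ring subunit, was among the highest in combination minus diabetic, at 0.30.

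The assembly factors of complex I shared only part of the course of the subunits. They help to build the enzyme and are not part of it when finished. In diabetic minus control 6 of 7 measured were above 0, with a median of 0.20, where the core subunits had -0.20. In metformin minus diabetic 6 of 7 were below 0, the direction of the core subunits, with a median of -0.25. The medians were -0.16 in combination minus diabetic and 0.02 in combination minus metformin. These genes were dimmer than the subunits, and in the bands of mean level from -1 to 0 and from 0 to 1 the median of all genes in diabetic minus control was 0.01 and -0.03. In metformin minus diabetic the medians of these bands were 0.004 and -0.04, with 49.6% and 55.9% of genes below 0. The shared direction there thus stands against unlike medians of all genes, near 0 at this level and lower at that of the subunits.

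Ndufaf4 moved most among them. It acts early in the assembly of the peripheral arm, and its promoter holds the NRF1 core printed above. It read 1.07 (control), 1.09 (diabetic), 0.46 (metformin) and 1.20 (combination). The metformin array was low by -0.63 (1.55-fold) from the diabetic array, and the combination array was higher than the metformin array by 0.75 (1.68-fold). The first value was -0.49 without scaling and the second 0.58 with each array scaled by its own probes and with the normexp background correction, both short of 1.5-fold. Ndufaf1, which works on the membrane arm, read 0.83 on the control, 1.16 on the diabetic and 0.74 on the metformin array. Ndufaf8 read -0.82, -0.35, -0.60 and -0.58 in group order.

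**Figure D3:**
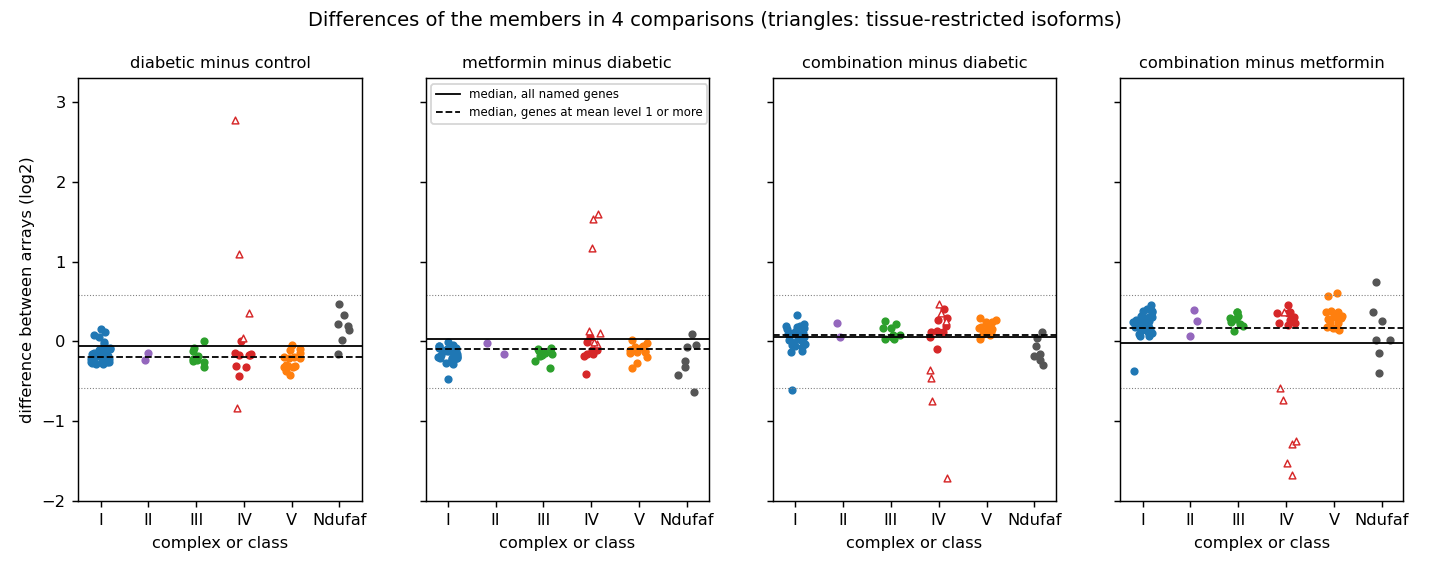
Difference in log2 of each member in the 4 comparisons, by complex and for the Ndufaf assembly factors. Filled circles are core subunits or assembly factors, open triangles the tissue-restricted isoforms, the solid line the median of all named genes, the dashed line that of genes at a mean level of 1 or more and the dotted lines 1.5-fold. The circles of complexes I to V lie near the dashed line, and most points beyond the dotted lines are triangles. In combination minus metformin most of these circles lie above the dashed line, with a core subunit median of 0.25 against 0.16.

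Most members that differed by at least 1.5-fold were isoforms of complex IV that are not typical of liver. Most of these isoforms were dim, and dim genes of any kind differed more between arrays than bright ones. In diabetic against control 2 of 84 members were higher, Cox6b2 and Ndufa4l2, against 14.8% of all named genes measured, and 1 was lower, Cox4i2, against 12.8%. In metformin against diabetic 3 of 85 were higher, Cox7b2, Cox8b and Cox6a2, against 19.4%, and 1 was lower, Ndufaf4, against 7.8%. In combination against diabetic 0 of 85 were higher, against 12.2%, and 3 were lower, Cox6b2, Cox7a1 and Ndufab1, against 12.9%. In combination against metformin 2 of 89 were higher, Ndufaf4 and Atp5b, against 7.46%, and 5 were lower, Cox6b2, Cox6a2, Cox8b, Cox7b2 and Cox7a1, against 20.0%. These members' counts were below the shares of all genes in each comparison and direction. The split over all genes moved with scaling. In combination against diabetic it was 1724 higher and 1815 lower, but 914 and 3096 with each array's own 75th percentile, 1012 and 2777 with quantile normalization and 2371 and 1445 with no scaling. In combination against metformin it was 1072 and 2866, but 567 and 3765 with each array's own percentile, 1561 and 2473 with median scaling and 1541 and 2530 with the authors' values. In metformin against diabetic it was 2694 and 1084, but 2310 and 1519 with median scaling, 2270 and 1627 with the authors' values and 3320 and 721 with no scaling. In diabetic against control it was 1996 and 1724, but 2775 and 1171 with no scaling.

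Cox6b2, the testis form of a subunit that faces the intermembrane space, had the largest difference of all members. It read -4.71 (control), -1.93 (diabetic), -1.97 (metformin) and -3.64 (combination), well above background on each. The diabetic and metformin arrays were alike and high, the control array lowest and the combination array between. The diabetic array exceeded the control array by 2.78 (6.86-fold), with 2.26 to 2.95 over the alternative settings. The combination array was lower than the diabetic array by -1.71 (3.28-fold) and than the metformin array by -1.68 (3.20-fold). The ubiquitous form Cox6b1 read 2.13, 1.98, 1.82 and 2.28.

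Cox7b2, Cox8b and Cox6a2 were highest on the metformin array. Cox8b and Cox6a2 are the forms of heart and skeletal muscle, Cox8b is also high in brown fat, and Cox7b2 is a testis form. Cox7b2 was not well above background on the control array and read -5.70 (diabetic), -4.10 (metformin) and -5.34 (combination). Cox8b was likewise not well above background on the control array and read -5.71, -4.17 and -5.46. Cox6a2 read -5.46, -5.42, -4.26 and -5.78 in group order.

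For these 3 dim genes the metformin array was the highest. The diabetic and combination arrays lay close together, as did the control array for Cox6a2, while for Cox7b2 and Cox8b the control array had only a bound. It exceeded the diabetic array by 1.60 (3.03-fold) for Cox7b2, 1.54 (2.91-fold) for Cox8b and 1.17 (2.25-fold) for Cox6a2. The combination array was lower than the metformin array by -1.25, -1.29 and -1.53. All 3 genes stayed past 1.5-fold in both comparisons under the settings in which they were measured. Other dim genes leaned the same way. In the band of mean level from -5 to -4, 32.4% of all genes were at least 1.5-fold higher in metformin minus diabetic and 9.44% lower (median 0.21). In combination minus metformin 9.24% were higher and 30.9% lower there (median -0.17). Against the control array, where the lowest level well above background was -5.79, the diabetic value of Cox7b2 was at least 1.07-fold and that of Cox8b at least 1.05-fold higher. Their signals were 141 and 140 on the diabetic array and 473 and 449 on the metformin array, so they rest on dim spots of 1 probe each.

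Cox7a1, a heart and muscle form, read -1.66, -1.31, -1.32 and -2.06, with the combination array lowest. Cox4i2, a form of lung and of low oxygen, read -0.15 (control), -0.99 (diabetic), -0.89 (metformin) and -0.53 (combination). It was 1.79-fold lower on the diabetic than on the control array and was the only isoform lower there. Ndufa4l2, a paralogue of the complex IV subunit Ndufa4 that is induced by hypoxia, read -5.51, -4.41, -4.28 and -4.86. Its excess on the diabetic over the control array was 1.10 (2.14-fold), or 0.58 with another background correction. Cox8c, a testis form, was not well above background on any array.

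**Figure D4:**
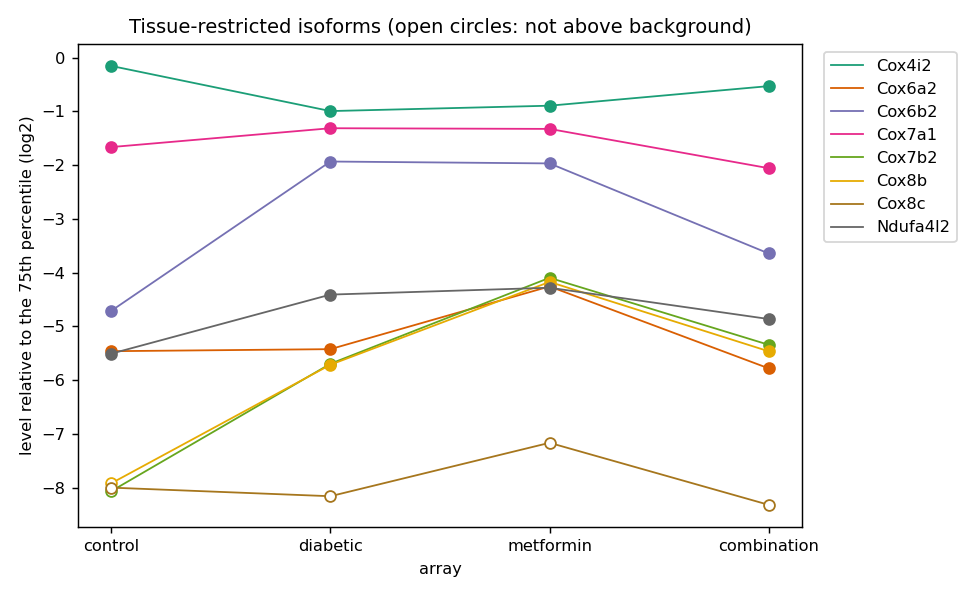
Level in log2 relative to the array's 75th percentile (vertical) of the 8 tissue-restricted isoforms on the 4 arrays (horizontal), 1 line per gene. Filled circles are above background and open circles are not, and Cox7b2, Cox8b and Cox6a2 peak on the metformin array while Cox6b2 is high on the diabetic and metformin arrays.

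Markers of other cell types differed between the same arrays, and their part in these results was not tested. In whole liver, fewer cells of a type and less RNA per cell cannot be told apart. The liver label held, with 8 of 9 named hepatocyte markers above background on each array. Their summed signal, as a multiple of the 75th percentile, was 62.2 (control), 50.4 (diabetic), 43.0 (metformin) and 49.6 (combination). Their median difference was -0.26 in diabetic minus control and -0.24 in metformin minus diabetic, where the core subunits were lower too. The 1918 named genes at a mean level of 1 or more were also lower there, with medians of -0.20 and -0.10. From the diabetic to the combination array the core subunits were higher. The summed hepatocyte signals of these arrays, 50.4 and 49.6, do not cover the same genes. The marker Apoa1 was measured in diabetic minus control but not in combination minus control. These sums therefore do not show whether hepatocyte markers shared that direction. The summed signal of lymphocyte markers was 1.01, 0.296, 2.00 and 0.574, highest on the metformin array, and that of acinar pancreas markers 33.4, 4.76, 9.10 and 2.21. The summed signal of endothelial markers was 5.74, 3.72, 6.02 and 5.29, and that of stellate cell and matrix markers 8.88, 4.66, 9.66 and 7.14. For Kupffer cell markers it was 14.5, 10.6, 11.9 and 8.17, and for erythroid markers 14.6, 9.69, 10.9 and 12.5. Each sum covers only the markers above background and unflagged on that array, so unlike numbers of genes entered. There were 10, 11, 10 and 5 for acinar pancreas, and 5, 4, 4 and 4 for erythroid cells. Stellate cells and matrix had 7, 6, 6 and 7, lymphocytes 7, 7, 8 and 7, and Kupffer cells 7, 8, 8 and 8.

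Beside the muscle and brown fat isoforms, 8 striated muscle markers had a summed signal of 0.288, 0.343, 0.436 and 0.296 in group order, with 4, 5, 6 and 5 of them above background. The defining muscle genes Ckm and Mb were not above background on any array. The 6 fat markers summed to 1.23, 0.975, 2.17 and 1.20, with 4 above background on each array. Ucp1, which defines brown fat, and Plin1 were not above background on any array. Cidea, a lipid droplet protein of brown fat and of fatty liver, read -1.50, -1.84, 0.21 and -1.92, and Cfd, the fat cell product adipsin, read -4.33, -3.92, -1.55 and -5.39 with its brighter probe. Both were highest on the metformin array, as Cox7b2, Cox8b and Cox6a2 were, while the fat cell hormone Adipoq was not, at -0.36, -0.73, -0.46 and -0.21.

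Among the regulators of mitochondrial biogenesis, Ppargc1a and Ppargc1b stood highest on the combination array. Most regulators are dimmer than the subunits, and in the band of mean level from 0 to 1 the differences of all genes had an SD of 0.50, 0.41, 0.45 and 0.42. In the band from -2 to -1, which holds Ppargc1b, the SD was larger, at 0.79, 0.66, 0.70 and 0.69. Ppargc1a encodes PGC-1alpha, the coactivator that drives OXPHOS genes through NRF1, GABP and ERRalpha. Its probe measured on every array read -0.15 (control), -0.28 (diabetic), 0.20 (metformin) and 1.44 (combination). A second probe read -1.30, -1.98 and 0.77 on the control, diabetic and combination arrays. The combination array was the highest with both probes, although the second had no metformin value. Over both probes it exceeded the diabetic array by 2.23 (4.71-fold), and with the first alone the metformin array by 1.24 (2.37-fold).

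Ppargc1b, the related coactivator PGC-1beta, read -2.81, -2.42, -2.01 and -0.60 with the probe measured on every array, again highest on the combination array. It exceeded the diabetic array there by 1.82 (3.52-fold) and the metformin array by 1.41 (2.65-fold). Over the alternative settings Ppargc1a ran from 1.72 to 2.35 and Ppargc1b 1.57 to 2.16 in combination minus diabetic. Tfam, the factor that packages and transcribes mitochondrial DNA, read 0.34, 0.36, 0.40 and 0.50. It too was highest on the combination array, but its levels differed far less between arrays. The core subunits were higher by a median of 0.11 in combination minus diabetic.

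Esrra, the partner of PGC-1alpha named above, read 0.13, 1.03, 0.47 and 0.86, highest on the diabetic array and 1.87-fold above the control array. Gabpb1, the beta subunit of GABP, was also highest on the diabetic array. It exceeded the control array by 1.18 (2.27-fold) and was lower than the diabetic array by -1.42 (2.67-fold) on the metformin and by -1.06 (2.08-fold) on the combination array. Pprc1, a further coactivator of the family, read 0.08, -0.83, -0.69 and -0.05. Of the list of 18 regulators, 16 were measured in diabetic minus control, 3 at least 1.5-fold higher and 1 lower, with a median of 0.01, against 14.8% and 12.8% of all genes. In metformin minus diabetic 0 of 16 were higher and 2 lower (median -0.21), Gabpb1 and the mitochondrial terminator protein Mterf1a at -0.91, against 19.4% and 7.8% of all genes. In combination minus diabetic 4 of 17 were higher and 2 lower (median 0.06), Gabpb1 and Tfb1m, a methyltransferase of mitochondrial ribosomal RNA, at -1.26, against 12.2% and 12.9%. In combination minus metformin 4 of 16 were higher and 0 lower (median 0.39), against 7.46% and 20.0%. Pprc1 was at -0.53 in diabetic minus control under 1 alternative setting, short of 1.5-fold.

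**Figure D5:**
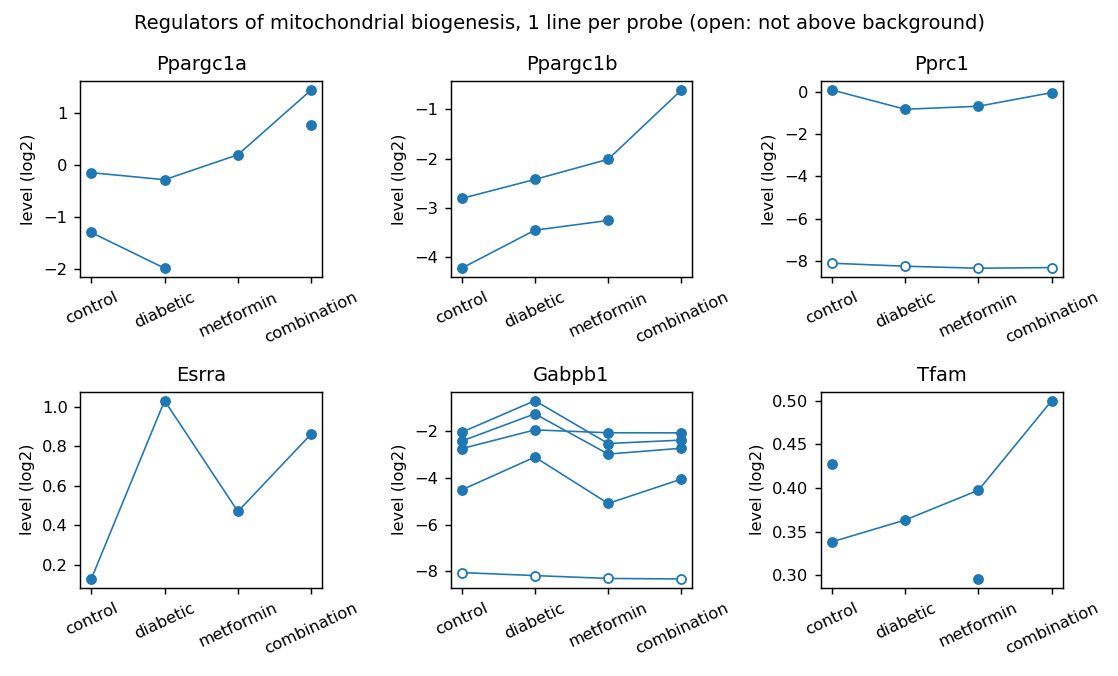
Level in log2 of 6 regulators of mitochondrial biogenesis on the 4 arrays, 1 line per probe, with filled circles above background and open circles not. Ppargc1a and Ppargc1b are highest on the combination array, at 1.44 and -0.60 with the probe measured on every array, and Esrra and the brighter Gabpb1 probes are highest on the diabetic array.

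The genes that feed or surround the respiratory chain were counted in the same way. Gpd2, the mitochondrial glycerol phosphate dehydrogenase that passes electrons to ubiquinone and has been described as a target of metformin, read -3.38, -3.22, -4.20 and -4.79 with the probe measured on every array. It was lower than on the diabetic array by -0.98 (1.97-fold) on the metformin and by -1.57 (2.97-fold) on the combination array. Of 15 measured genes that bring electrons to ubiquinone or build it, 0 were at least 1.5-fold higher and 2 lower in metformin minus diabetic, and 2 were higher and 1 lower in combination minus diabetic. The others that passed were Coq5, a ubiquinone methyltransferase, at -0.67 on the metformin array, and Coq7, a ubiquinone hydroxylase, at 0.86 and Pdss1, which makes its side chain, at 0.65 on the combination array. In diabetic minus control 1 of 15 was higher, the ubiquinone reductase Aifm2 at 0.87, and 2 were lower, Pdss1 at -0.75 and the sulfide oxidase Sqor at -0.59. Against the metformin array, on the combination array 1 of 15 was higher, Coq7 at 0.66, and 1 lower, Gpd2 at -0.59. The shares of all genes higher and lower were 14.8% and 12.8%, 19.4% and 7.8%, 12.2% and 12.9%, and 7.46% and 20.0% in the 4 comparisons. Under alternative settings the last values came down to 0.19 for Coq7 and -0.33 for Gpd2, and the calls of Coq5 (-0.52), Aifm2 (0.55), Pdss1 (0.40 and -0.58) and Sqor (-0.39) were lost too. Gpd2 in both comparisons with the diabetic array, and Coq7 in combination minus diabetic, stayed past 1.5-fold.

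Slc25a4, the muscle form of the ADP/ATP carrier, read -1.20, -1.58, 0.15 and -0.60, and Ucp3, an uncoupling protein of muscle, read -2.33, -3.18, -1.69 and -2.22. Both were highest on the metformin array, by 1.73 (3.33-fold) and 1.48 (2.80-fold) above the diabetic array. Of the carriers and uncoupling proteins measured, 3 of 11 were at least 1.5-fold higher and 0 lower in metformin minus diabetic and 2 of 12 higher and 0 lower in combination minus diabetic, Slc25a4 at 0.98 and Ucp3 at 0.96. In diabetic minus control 0 of 10 were higher and 1 lower, Ucp3 at -0.84. Against the metformin array, on the combination array 1 of 13 was higher, the pyruvate carrier subunit Mpc2 at 0.62, and 1 lower, Slc25a4 at -0.75. All genes had 14.8% and 12.8%, 19.4% and 7.8%, 12.2% and 12.9%, and 7.46% and 20.0% higher and lower. The values of Mpc2 and Slc25a4 in the last comparison came down to 0.38 and -0.48 under alternative settings, short of 1.5-fold.

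In the citric acid cycle list, which includes pyruvate dehydrogenase, the medians were -0.07, -0.17, 0.09 and 0.28 in the 4 comparisons. In diabetic minus control this lay nearer to the median of all genes, -0.05, than to that of the core subunits, -0.20. In the later comparisons it lay nearer to the core subunits. Those had medians of -0.14, 0.11 and 0.25 in the same order, and all genes 0.03, 0.05 and -0.02. Genes at a mean level of 1 or more had -0.10, 0.08 and 0.16. The citric acid cycle medians lay nearer to these than to all genes as well, so the likeness is not particular to the core subunits. Dlat, the acetyltransferase of pyruvate dehydrogenase, read -3.24, -1.93, -1.49 and -1.19, lowest on the control array, and was 2.48-fold higher on the diabetic array. It was the 1 gene of 15 measured that was at least 1.5-fold higher there, and 0 were lower. Suclg2, a succinyl-CoA ligase subunit, was the 1 gene of 13 lower in metformin minus diabetic, at -0.62, with 0 higher. In combination minus diabetic 1 of 15 was higher, Dlat at 0.74, and 0 lower. Against the metformin array, on the combination array 2 of 14 were higher, Idh3b of isocitrate dehydrogenase at 0.95 and Suclg2 at 0.75, and 0 lower. The counts in diabetic minus control stand against 14.8% and 12.8% of all genes, those in metformin minus diabetic against 19.4% and 7.8%, and the last pairs against 12.2% and 12.9% and against 7.46% and 20.0%. Under alternative settings Suclg2 came down to -0.36 and 0.49 and Dlat in combination minus diabetic to 0.49, short of 1.5-fold.

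The list of other assembly factors held 39 genes. In diabetic minus control 4 of 35 measured were at least 1.5-fold higher and 0 lower, with a median of 0.02. The highest was Pet117, a complex IV assembly factor, with levels of -4.77, -3.63, -3.73 and -2.99 and a difference of 1.14 (2.20-fold). Acad9, an acyl-CoA dehydrogenase relative that assembles complex I, was higher by 0.87 (1.83-fold). In metformin minus diabetic 0 of 34 were higher and 3 lower, among them Taco1, a translational activator for complex IV, at -0.87 and Bcs1l, the complex III chaperone, at -0.66. In combination minus diabetic 2 of 35 were higher, Coa5 at 0.72 and Pet117 at 0.63, and 1 lower, Bcs1l at -0.61. Against the metformin array, on the combination array 2 of 35 were higher, Pet117 at 0.73 and Cox10, a haem A farnesyltransferase, at 0.62, and 0 lower. Over all genes 14.8% and 12.8%, 19.4% and 7.8%, 12.2% and 12.9%, and 7.46% and 20.0% were higher and lower. Under alternative settings Bcs1l came down to -0.48 and -0.49, Coa5 to 0.47, Cox10 to 0.45 and Pet117, in the comparisons of the combination array, to 0.38 and 0.56, short of 1.5-fold. Atpif1, the inhibitor of ATP synthase, differed by 0.12, 0.11, 0.07 and -0.04 in the 4 comparisons, close to the technical SD or below it.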

How the data were processed

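The deposited scanner output gives 1 intensity per spot and array. Its software was Feature Extraction 11.5.1.1 with an mm9 grid, per the file headers. Version 10.7 is named in the submitters' processing notes. The processed signal used here had been corrected for background by that software. The authors' deposited value table holds log2 values by an unstated method, with the same median of 7.84 in each column. Set against log2 processed signals across probes, it had slopes of 0.964 to 1.05. Per the labels' protocols RNA was labelled with Cy5. Slide and scan time were common to the 4 arrays. The sources used here do not give RNA batches.

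Spots marked non-uniform or population outliers were dropped and the other spots of a probe averaged. A probe was above background where at least 50% of its spots were marked so. Of 56605 probes, 29398, 29828, 31867 and 31980 were so in group order. A total of 33767 probes were named by RefSeq transcript through a GRCm38.p6 gene table. Analyses used Python 3.11.15, pandas 2.3.3 and, for the normexp background correction (offset 50), limma 3.58.1 in R 4.3.3. The number of arrays limits the precision. The code was tested on simulated data. Members, lists and alternatives were chosen with earlier results of these data known. Genes named are the 5 highest and 5 lowest members in a comparison, the catalytic subunits, the restricted isoforms and those of the 2 highest and 2 lowest of each other list that passed 1.5-fold, except 1 gene not reported here. Ndufa11, Ndufb8, Cox6b1, Tfam and single markers were named after their values were seen.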

Additional observations from a re-analysis of the deposited data

How the results depend on the processing

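No paired analysis was possible because each group has 1 array, and for the same reason no array could be left out. Of 136 alternative values for the 12 summary results, 103 stayed within the technical SD (medians) or 1.5 times (counts), and of 5680 for single genes 4316 did so or kept their side of 1.5-fold. No single gene past 1.5-fold turned its direction. The planned normexp correction on mean signals was not run, since that column is not in the files analysed. It was run on median signals, an alternative chosen after seeing the data, as were no scaling, the core subunits alone and the comparison with genes at a mean level of 1 or more.

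The median of all members minus that of all genes was -0.12 in diabetic minus control, -0.15 in metformin minus diabetic, 0.05 in combination minus diabetic and 0.27 in combination minus metformin. With quantile normalization it was 0.0245 and -0.0343 in the first and second. With the authors' values it was 0.0872 in the first, -0.0211 in the second and 0.0322 in the last. Against genes at a mean level of 1 or more it was 0.0220, -0.0298 and 0.0773 in those same comparisons. Other scalings moved the median of all genes itself, to -0.20 in combination minus diabetic and -0.19 in combination minus metformin with each array's own 75th percentile, to -0.13 and -0.15 with quantile normalization, and to -0.12 in diabetic minus control with median scaling. With no scaling it was 0.12, 0.17, 0.17 and -0.05 in the 4 comparisons.

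Counts of members at least 1.5-fold apart changed as follows. In diabetic minus control the 2 higher became 4 with no filter on background, 1 with normexp and 0 among core subunits, and the 1 lower became 2 with no filter and 0 among core subunits. In metformin minus diabetic the 3 higher became 5 with no filter, 1 where all 4 arrays had to be above background and 0 among core subunits. The 1 lower became 2 with median scaling or with outlier spots kept and 0 with no scaling or among core subunits. In combination minus diabetic the 3 lower became 5 with each array's own percentile and 1 among core subunits, and the 0 higher became 1 with no filter. In combination minus metformin the 2 higher became 0 with each array's own percentile and 1 with quantile normalization, outlier spots kept, the authors' values, the brightest probe, normexp, no scaling or core subunits. The 5 lower became 3 where all 4 arrays had to be above background and 0 among core subunits. Apart from fewer genes entering under the stricter filter and among core subunits, the cause was not tested. Dim isoforms are limited by signal near background and bright subunits by the small differences of all genes at their level.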
